A study of Mus musculus with 6 samples.

Results

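Aminoacyl-tRNA synthetases were followed in cultured lung fibroblasts with and without Atf4. They are the enzymes that join each amino acid to its tRNA before the ribosome can use it. The set was drawn up by gene name, with earlier results of these arrays known, and holds 34 genes of the 30176 that have an array row of their own. Of these, 18 encode enzymes of the cytosol and 16 encode separate enzymes of the mitochondrion, all of them named with a final 2. In the cytosolic group 2 genes, Gars and Kars, are dual, since each makes both a cytosolic and a mitochondrial form. Each of the 34 genes had 1 row that named it and no other gene, so 34 rows were used and no choice between rows was needed. All 34 lay above the median row in mean level.

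Translation runs in the cytosol and, with a separate set of tRNAs, in the mitochondrion, and all of the synthetases of both sets are encoded in the nucleus. When an amino acid runs short, uncharged tRNA activates the kinase GCN2, eIF2α is phosphorylated, and the transcription factor ATF4 is made. Among the genes that ATF4 is known to raise in mouse cells are many cytosolic synthetases, together with enzymes and carriers that supply amino acids.

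The study compared fibroblasts of mice with intact Atf4 (LFBwt/wt, 3 arrays) and with both Atf4 alleles deleted (LFBD/D, 3 arrays), all at passage 2 and all labelled as taken from both sexes. Mice of both genotypes carried a tamoxifen-inducible Cre driven from Rosa26, which is active in most cell types, and lungs were taken at 8 to 10 weeks of age with the tissue of 4 mice digested together. Both genotypes were grown with 4-hydroxytamoxifen, non-essential amino acids and β-mercaptoethanol. The labels call the replicates biological, but nothing says that they came from separate pools of mice, and the p-values below may therefore measure technical spread.

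Values are the deposited log2 expression levels, and a change is the mean of LFBD/D minus the mean of LFBwt/wt on that log2 scale. Levels of different genes cannot be set against each other, because each row has its own probes. Atf4 itself was at 8.67, 8.95 and 8.73 in LFBwt/wt and at 7.73, 7.49 and 7.48 in LFBD/D. The groups did not overlap, Atf4 fell 2.32-fold (limma adjusted p = 0.000497), and each array matched its label. Array medians lay between 4.87 and 4.91, and arrays of the same genotype correlated at 0.997 to 0.998.

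The cultures also differed in the RNA levels of cell type markers. Of 18 leukocyte markers measured 13 were higher in LFBD/D and 0 lower, and their mean level per array was 8.80 to 9.15 in LFBwt/wt and 10.72 to 11.07 in LFBD/D. The 5 that did not pass, Cx3cr1 and the lymphocyte and natural killer cell genes Cd3e, Cd79a, Ms4a1 and Ncr1, lay between 3.85 and 5.64 in both genotypes, near the array medians. Of 6 mesothelial markers 5 were lower and 1, Krt19, was higher, with mean levels of 9.77 to 10.31 against 6.59 to 7.18. Of 9 fibroblast markers 5 fell (Col1a1, Col1a2, Col3a1, Pdgfrb and Thy1), with mean levels over all 9 of 14.97 to 15.11 against 13.73 to 14.04. The others did not pass, with Lum and Fn1 at −0.45 and −0.55 but Dcn and Vim on the higher side, at 0.18 and 0.21. Of 5 endothelial markers 2 were higher, with mean levels of 5.50 to 5.80 against 6.29 to 6.66. Of 6 epithelial markers 1 was higher and 1 lower, and the other 4 lay between 3.72 and 4.98. The part of these shifts in the synthetase values below was not tested, and fewer cells of a type cannot be told apart from less RNA per cell.

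LFBD/D had less RNA of several cytosolic synthetases, and no gene of the mitochondrial set passed the thresholds used here. Of the 18 cytosolic or dual genes 4 fell, namely Cars, Mars, Tars and Eprs, 0 rose and 14 did not pass (limma, with thresholds of 0.05 on the adjusted p and 1.5 on the fold change). Without replicate 2 of either genotype the number that fell was 2. This is 22.2% of the group lower, where 2.57% of all 65956 rows were lower and 2.28% higher. Among rows above the median level, which the synthetases all were, 5.04% were lower and 4.48% higher. Of the 16 mitochondrial genes 0 rose and 0 fell, although 5 of them had an unadjusted limma p under 0.05, as 5 had in the methods' t-test. By the limma adjusted p alone 1 of them was lower (6.25%) and 3 were higher (18.8%). Among rows above the median level 12.1% were lower and 12.0% higher by that rule. The median change was −0.24 over the cytosolic genes and 0.02 over the mitochondrial genes, beside 0.00 over all rows. The individual changes ran from −1.27 to 0.52 in the cytosolic group and from −0.32 to 0.43 in the mitochondrial group, with an SD across genes of 0.50 and 0.19.

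**Figure D1:**
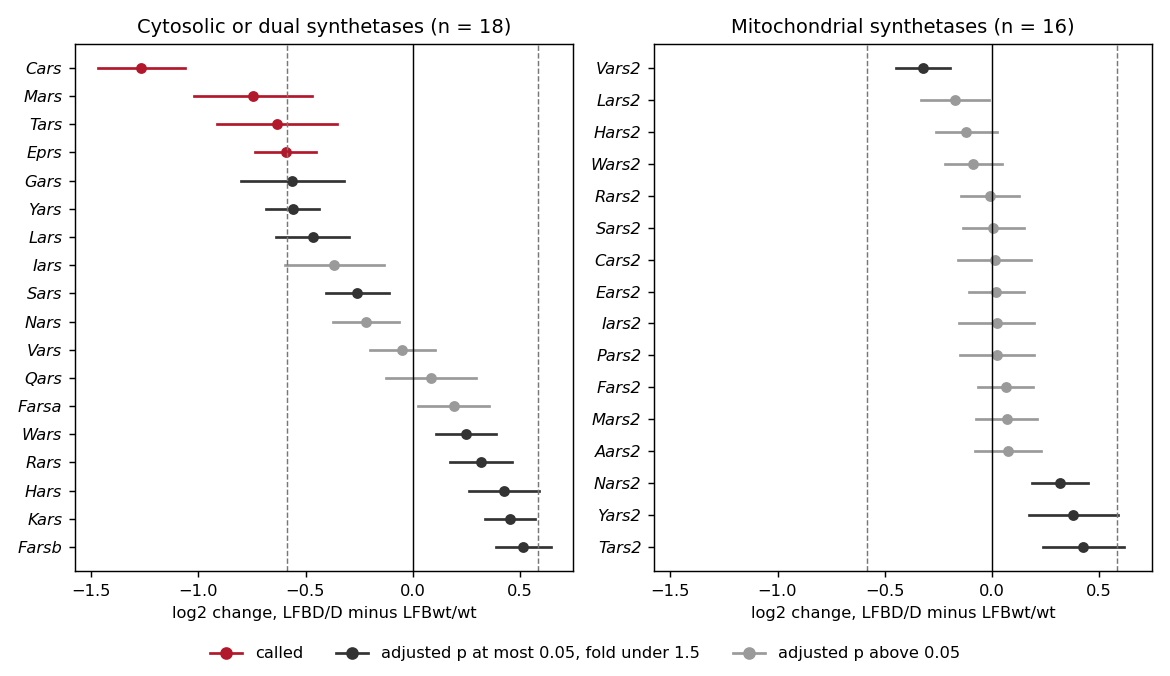
Log2 change (LFBD/D minus LFBwt/wt, x axis) of each synthetase gene (y axis), with points for limma estimates and lines for 95% confidence intervals, 3 arrays per genotype. Dashed lines mark a fold change of 1.5. Cytosolic genes spread from −1.27 (Cars) to 0.52 (Farsb), and 10 of the mitochondrial genes lie within 0.09 of 0.

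Cars, which charges tRNA with cysteine, showed the largest change of the 34 genes. It was at 9.82, 9.83 and 9.93 in LFBwt/wt and at 8.71, 8.41 and 8.66 in LFBD/D. Every LFBD/D array was thus more than 1 log2 unit below every LFBwt/wt array. Cars fell 2.40-fold (log2 change −1.27, s.e. 0.09, limma adjusted p = 0.000297), and it passed in each of the 6 fits that left out 1 array. It was also the single member that passed a test against a fold change of 1.5 itself.

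Mars charges both the initiator and the elongator tRNA of methionine. Its values were 10.76, 10.65 and 11.01 in LFBwt/wt and 10.24, 9.91 and 10.04 in LFBD/D, with no overlap but with more spread between arrays of 1 genotype than Cars had. Mars fell 1.67-fold (log2 change −0.74, s.e. 0.12, limma adjusted p = 0.00653). In the methods' t-test its adjusted p was 0.0797. The span of Mars overlaps that of Ddit3, the stress factor CHOP, in the RefSeq gene table. The brighter of 2 Ddit3 rows was at 11.87 ± 0.06 in LFBwt/wt and 11.81 ± 0.30 in LFBD/D (mean ± SD, n = 3), a difference of −0.05 with a limma adjusted p of 0.872, and the dimmer one differed by 0.52 (adjusted p = 0.0228), without overlap and under the fold threshold.

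Tars, the threonine enzyme, read 12.77, 12.90 and 12.74 in LFBwt/wt against 12.21, 11.92 and 12.40 in LFBD/D. All 3 LFBD/D arrays were lower, and replicate 2 was the lowest of them. Tars fell 1.55-fold (log2 change −0.63, s.e. 0.12, limma adjusted p = 0.0138). Without replicate 2 of LFBD/D the change was −0.50, below the fold threshold, without replicate 2 of LFBwt/wt it was −0.58 with an adjusted p of 0.0586, and in the methods' t-test the adjusted p was 0.112.

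Eprs encodes a single protein that charges both glutamate and proline tRNAs and belongs to the multisynthetase complex. Its levels of 13.10, 13.14 and 13.07 in LFBwt/wt and 12.57, 12.42 and 12.54 in LFBD/D were the tightest of the 4 genes within each genotype. Eprs fell 1.51-fold (log2 change −0.59, s.e. 0.06, limma adjusted p = 0.00109). That fold lies on the threshold, and the gene no longer passed at −0.58 with each array centred on its median or without replicate 2 of LFBwt/wt, or at −0.55 without replicate 2 of LFBD/D. Its adjusted p in these 3 fits was 0.00178, 0.00882 and 0.00295.

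The mitochondrial partners of these 4 genes did not pass. Cars2, which charges mitochondrial cysteine tRNA, was at 7.59, 7.54 and 7.69 in LFBwt/wt and at 7.67, 7.68 and 7.51 in LFBD/D. Mars2, the methionine enzyme, was at 6.90, 6.88 and 6.94 in LFBwt/wt and at 6.88, 7.02 and 7.01 in LFBD/D. In both genes the groups overlapped, and the 95% intervals of the change were −0.16 to 0.18 for Cars2 and −0.07 to 0.21 for Mars2, which leave out a fall as large as that of the cytosolic gene.

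For the 2 amino acids of Eprs the mitochondrion has separate genes. Ears2, for glutamate, was at 5.34, 5.44 and 5.35 against 5.37, 5.42 and 5.39, and Pars2, for proline, was at 5.64, 5.79 and 5.87 against 5.82, 5.82 and 5.72. These are the dimmest of the 34 rows, the nearest to the array medians, where a change in RNA may be understated. Tars2, the threonine enzyme, went the other way from Tars, at 8.18, 8.16 and 8.24 in LFBwt/wt and 8.78, 8.58 and 8.51 in LFBD/D. Its groups did not overlap, and its change of 0.43 (s.e. 0.08) had a limma adjusted p of 0.0135, a fold of 1.34 that is under the threshold.

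**Figure D2:**
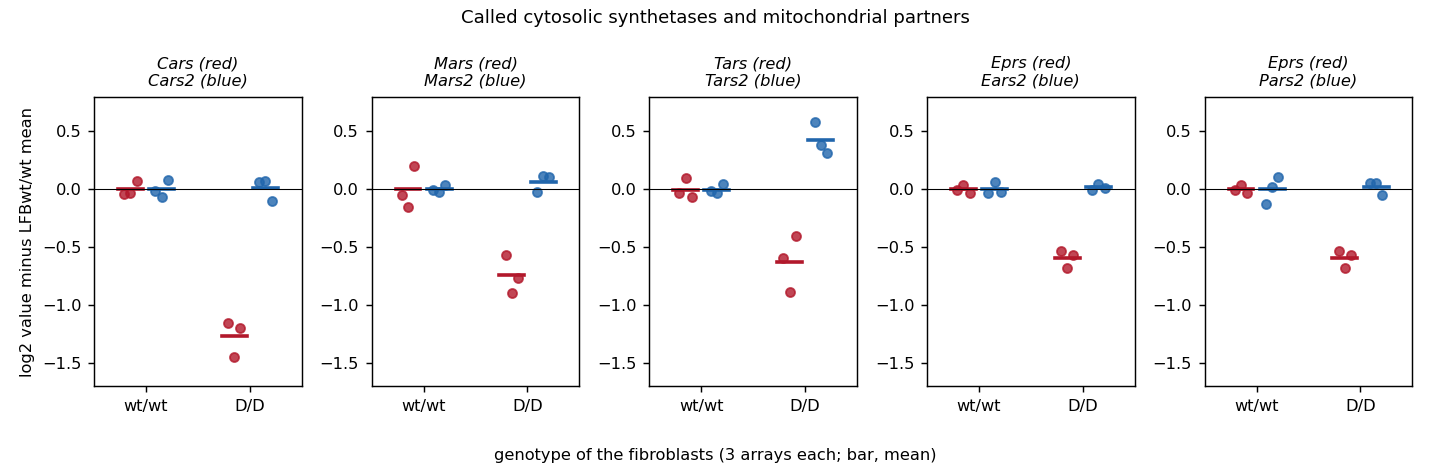
Log2 values of the 4 cytosolic genes that fell (red) and of their mitochondrial partners (blue), each minus its LFBwt/wt mean (y axis), by genotype (x axis). Points are single arrays and bars are means of 3. The red points of LFBD/D lie below all LFBwt/wt points in every panel, and the blue ones lie near 0 except for Tars2, at a mean of 0.43.

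Without the fold threshold the cytosolic genes differed in both directions. With the adjusted p alone, 8 of the 18 were lower (44.4%), 5 were higher (27.8%) and 5 did not pass. Cars, Mars, Tars and Eprs, which also passed the fold threshold, are among the 8 lower genes. By that rule 6.54% of all rows were lower and 6.41% higher, or 12.1% and 12.0% of rows above the median level. In 10 of the 18 all LFBD/D values lay below all LFBwt/wt values, in 6 they lay above, and 2 overlapped. Over all rows 15.0% were separated downward and 15.0% upward, and above the median level 22.4% and 21.8%.

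Gars, the dual glycine enzyme, came next after the 4 genes that fell. It read 13.55, 13.56 and 13.62 in LFBwt/wt and 13.07, 12.79 and 13.19 in LFBD/D, a difference of −0.56 (s.e. 0.10, limma adjusted p = 0.0118) and a fold of 1.48. Replicate 2 of LFBD/D was again the lowest. Gars passed at −0.59 without replicate 1 of LFBD/D and at −0.65 without replicate 3. Yars, for tyrosine, had almost the same difference with far less spread, at 9.32, 9.26 and 9.33 against 8.74, 8.72 and 8.78 (−0.56, s.e. 0.05, limma adjusted p = 0.000805). Eprs just inside the fold threshold and Gars and Yars just outside it thus differed by 0.03 in log2 change.

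Lars, the leucine enzyme, differed by −0.47 (limma adjusted p = 0.0061) and Sars, which charges serine tRNA and the tRNA that becomes selenocysteine tRNA, by −0.26 (adjusted p = 0.0359). Sars missed an adjusted p of 0.05 in 5 of the 6 fits that left out 1 array, with a highest value of 0.120. Iars, for isoleucine, at −0.37, and Nars, for asparagine, at −0.22, had groups that did not overlap but missed the threshold, with limma adjusted p of 0.0515 and 0.0749. Iars was at 13.52, 13.53 and 13.48 in LFBwt/wt and at 12.95, 13.35 and 13.14 in LFBD/D, where replicate 1 was the lowest. Without that array the difference was −0.27, and over the fits that left out 1 array its adjusted p ran from 0.0122 to 0.146. Vars, for valine, was at −0.05 and Qars, for glutamine, at 0.09, and in both the groups overlapped.

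The cytosolic genes with higher values were led by Farsb and Kars. Farsb, the β subunit of the phenylalanine enzyme, was at 10.39, 10.38 and 10.34 in LFBwt/wt and 10.89, 10.84 and 10.93 in LFBD/D, a difference of 0.52 (s.e. 0.05, limma adjusted p = 0.00124). Farsa, the catalytic α subunit of the same enzyme, differed by 0.19 with an adjusted p of 0.145. Kars, the dual lysine enzyme, read 11.66, 11.69 and 11.64 against 12.12, 12.13 and 12.11, the smallest spread within LFBD/D of all 34 genes, for a difference of 0.45 (s.e. 0.05, adjusted p = 0.00148). The 2 dual genes therefore lay on opposite sides of 0.

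Hars, the histidine enzyme, differed by 0.43 (limma adjusted p = 0.00761), Rars, for arginine, by 0.32 (adjusted p = 0.0159) and Wars, the tryptophan enzyme that interferon induces in human cells, by 0.25 (adjusted p = 0.0351). None of these higher values reached a fold of 1.5. In the fits that left out 1 array, the limma adjusted p of Wars was under 0.05 only without replicate 1 of LFBwt/wt, at 0.0482, and its highest value was 0.118. Rars missed 0.05 without replicate 2 or 3 of LFBwt/wt or replicate 3 of LFBD/D, with a highest value of 0.0633. Hars was at 10.57, 10.62 and 10.49 in LFBwt/wt and at 11.03, 10.88 and 11.07 in LFBD/D. The part of the leukocyte marker shift in these higher values was not tested.

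**Figure D3:**
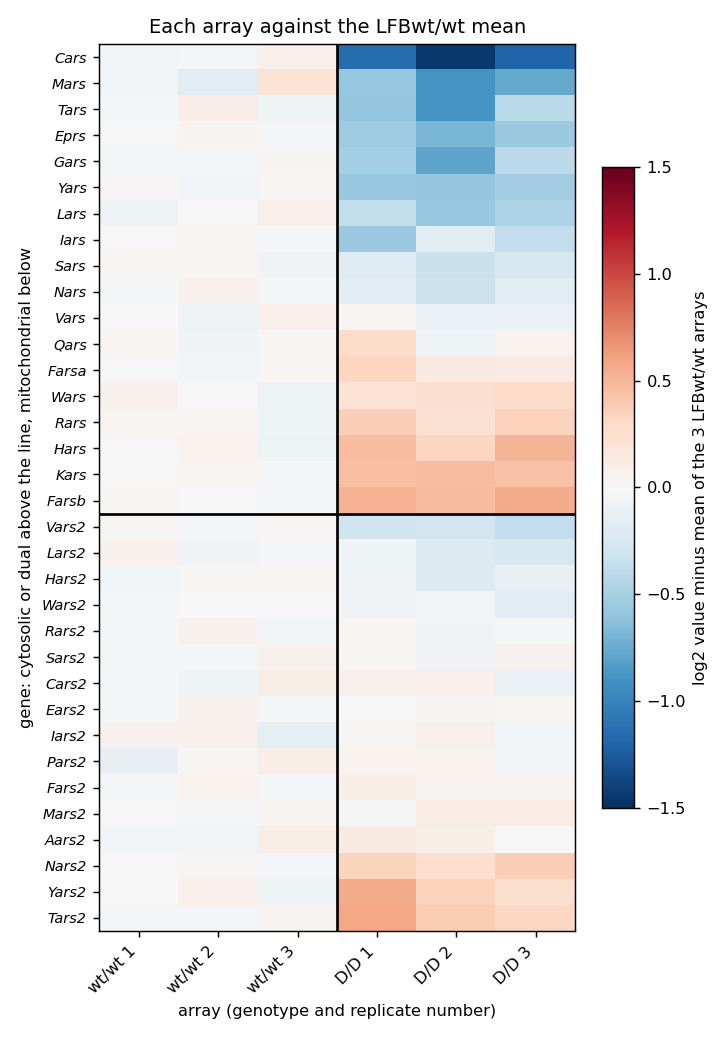
Log2 value of each gene (rows) on each of the 6 arrays (columns) minus the mean of the 3 LFBwt/wt arrays, in colour from −1.5 (blue) to 1.5 (red). Cytosolic or dual genes stand above the black line and mitochondrial genes below it. The blue rows of LFBD/D, from Cars down to Nars, are blue on all 3 arrays, and the deepest colour is Cars on replicate 2.

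Groupings of the 18 cytosolic genes by function were read as counts and medians. Of the 18, 11 are often listed among ATF4 targets (Cars, Eprs, Gars, Iars, Lars, Mars, Nars, Sars, Tars, Wars and Yars), with a median change of −0.56. In 10 of the 11 every LFBD/D value lay below every LFBwt/wt value, and Wars was the exception, where 22.4% of rows above the median level were separated downward. The other 7 (Farsa, Farsb, Hars, Kars, Qars, Rars and Vars) had a median change of 0.32, 4 of them higher and 0 lower by the adjusted p alone, where 12.0% and 12.1% of rows above the median level were. The list was drawn up from general knowledge with earlier results of these arrays known, and it is a description with no test.

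The multisynthetase complex, which holds several cytosolic synthetases on scaffold proteins, cuts across that list. Its 7 members measured here (Eprs, Iars, Kars, Lars, Mars, Qars and Rars) had a median change of −0.37, and the 11 outside it had a median of −0.22. In each of these groups 2 fell, which is 28.6% of the 7 and 18.2% of the 11, beside 5.04% of rows above the median level. Synthetases also fall into 2 structural classes by their catalytic domain. The 9 class I enzymes ranged from −1.27 to 0.32 and the 8 class II enzymes from −0.63 to 0.52, Eprs aside, which has a domain of each class.

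Within the mitochondrial set 1 gene was lower and 3 were higher by the adjusted p alone, and 12 did not pass. This is 6.25% and 18.8%, beside the 12.1% and 12.0% of rows above the median level. Vars2, for valine, was at 7.42, 7.37 and 7.43 in LFBwt/wt and 7.10, 7.12 and 7.03 in LFBD/D, a difference of −0.32 (s.e. 0.05, limma adjusted p = 0.00843). On the higher side, after Tars2, Yars2 for tyrosine was at 8.53, 8.61 and 8.46 against 9.09, 8.88 and 8.78, a difference of 0.38 (s.e. 0.09, adjusted p = 0.0308). Yars2 missed 0.05 in 5 of the 6 fits that left out 1 array, where its adjusted p reached 0.108, and Tars2 missed it in 1, at 0.0574. Nars2, for asparagine, was at 7.23, 7.25 and 7.22 against 7.57, 7.49 and 7.60, a difference of 0.32 (adjusted p = 0.00951). Thus in 3 amino acids, threonine, tyrosine and asparagine, the mitochondrial gene had the higher values and the cytosolic gene the lower values in LFBD/D, with no overlap in any of the 6 genes. Of the 6, Nars missed the threshold on the limma adjusted p, at 0.0749. How often other row pairs are separated in opposite directions was not computed. In the whole mitochondrial set 25.0% of genes were separated downward and 18.8% upward, near the 22.4% and 21.8% of rows above the median level.

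Lars2, for leucine, and Hars2, for histidine, which are deafness genes in people, differed by −0.17 and −0.12, and Wars2, for tryptophan, by −0.09. Their groups did not overlap, but their limma adjusted p was 0.159, 0.296 and 0.427. The other 9 mitochondrial genes had overlapping groups. They were Aars2 for alanine (0.08), Mars2 (0.07), Fars2 for phenylalanine (0.06), Pars2 (0.02), Iars2 for isoleucine (0.02), Ears2 (0.02), Cars2 (0.01), Sars2 for serine (0.01) and Rars2 for arginine (−0.01). Standard errors in the mitochondrial set were 0.05 to 0.09, so a change of 1.5-fold lay outside the 95% interval of all genes but Tars2 and Yars2. The mitochondrial rows were nearer to background, with a median LFBwt/wt signal of 7.41 against 11.07 for the cytosolic rows, which is no measure of their RNA amounts.

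For each amino acid with both a cytosolic and a mitochondrial gene, the log2 difference between the partners was taken on every array, so that a shift common to all rows of an array drops out. There were 16 such pairs among 15 cytosolic genes, as Eprs has 2 partners and Fars2 serves for both Farsa and Farsb. In 10 pairs this difference was lower in LFBD/D and in 6 it was higher, and in all 16 the differences of the 3 LFBD/D arrays lay outside the range of the 3 LFBwt/wt arrays. With 3 arrays against 3 the smallest p of a two-sided exact permutation test is 0.10, which each pair reached, also after Benjamini-Hochberg adjustment over the 16 pairs. This test could thus not reach 0.05 for any pair. Over single rows above the median level 22.4% were separated downward and 21.8% upward, and the share of other row pairs that would be separated was not computed.

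The largest of these shifts was that of Cars against Cars2, from 2.22 to 2.29 in LFBwt/wt to between 0.73 and 1.16 in LFBD/D, a mean shift of −1.28 (s.e. 0.13). Tars against Tars2 shifted by −1.06 (s.e. 0.19), Yars against Yars2 by −0.94 (s.e. 0.12) and Mars against Mars2 by −0.81 (s.e. 0.16). Eprs shifted by −0.61 against Ears2 and by −0.62 against Pars2. The upward shifts were led by Hars against Hars2, at 0.55 (s.e. 0.06), and by Farsb against Fars2, at 0.45 (s.e. 0.04). Hars and Hars2 are neighbours whose spans overlap in the RefSeq gene table, and their changes were 0.43 and −0.12. In 14 of the 16 pairs the cytosolic gene had the larger change in size, and the exceptions were Nars with Nars2 and Vars with Vars2. The mitochondrial rows lay nearer to background (median LFBwt/wt signal 7.41 against 11.07), where a change may be understated. The part of this in the count was not tested.

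**Figure D4:**
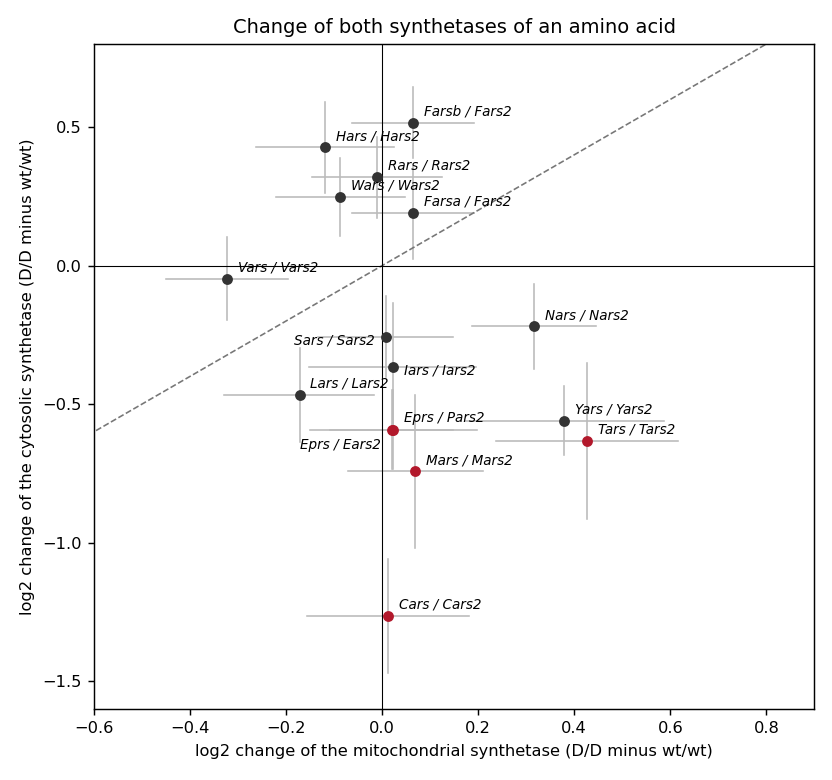
Log2 change of the cytosolic synthetase (y axis) against that of the mitochondrial synthetase of the same amino acid (x axis), LFBD/D minus LFBwt/wt, with 95% limma intervals as lines. Red points are cytosolic genes that fell, and the dashed line marks equal change. Of the 16 pairs 10 lie below the line, Cars with Cars2 the farthest from it, and 6 lie above it.

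Other genes of tRNA charging were read from a list of 21, of which 16 had a row of their own. Of these 1 rose, 0 fell and 15 did not pass, with a median change of 0.06. By the same thresholds 4.48% of rows above the median level were higher and 5.04% lower, so 1 of 16 is near that share. The gene that rose was Eef1e1, a scaffold protein of the multisynthetase complex. It was at 11.91, 11.87 and 11.76 in LFBwt/wt and at 12.74, 12.77 and 12.91 in LFBD/D, a 1.95-fold rise (log2 change 0.96, s.e. 0.07, limma adjusted p = 0.000354). The other scaffold proteins Aimp1 and Aimp2 differed by 0.18 and 0.36, with adjusted p of 0.123 and 0.0057. Xpot, which exports tRNA from the nucleus, differed by −0.50 (adjusted p = 0.00208) at a fold of 1.41. In the mitochondrion, where glutamine tRNA is charged by way of glutamate, the amidotransferase genes Gatb and Qrsl1 were at 0.02 and −0.01. Gatc, of the same amidotransferase, differed by 0.30 (s.e. 0.25, limma adjusted p = 0.556), with overlapping groups. It had more spread, at 11.22 ± 0.24 in LFBwt/wt and 11.52 ± 0.53 in LFBD/D (mean ± SD). The limma interval of Gatc, −0.294 to 0.895, does not leave out a rise of 1.5-fold. Aars, the cytosolic alanine enzyme, had no row that named it alone and was not analysed here.

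Promoter sequences were taken from RefSeq (GRCm38.p6) to show what lies at the starts of these genes. ATF4 binds with partners of the C/EBP family at a composite element whose core was searched as TGATGNAA on both strands, N being any base, in windows from 250 bases before to 50 after the start. Of the 34 genes 25 had a window in the table, 11 cytosolic and 14 mitochondrial, and Cars was not among them. The core was found in 4 of the 11 cytosolic genes, Tars, Gars, Yars and Iars, and in 0 of the 14 mitochondrial genes, beside 3.97% of all 32851 windows. All 4 genes had LFBD/D values below their LFBwt/wt values, but of them Tars alone passed the thresholds. Among the 7 cytosolic genes without a match, Eprs, Mars and Sars also had lower values. A match is a description of the letters and not a measured site, and no match says nothing on binding elsewhere.

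The 100 bases around the start of these 4 genes, and of Mars and Eprs, which fell and had no match, follow to show where the core lies. Each runs from 70 bases before to 30 after the start, 5′ to 3′ on the strand of the gene, and capitals mark the core.
Tars, chr15:11399629-11399728, minus strand: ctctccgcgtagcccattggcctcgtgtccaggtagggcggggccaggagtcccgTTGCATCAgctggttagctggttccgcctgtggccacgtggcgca
Gars, chr6:55037931-55038030, plus strand: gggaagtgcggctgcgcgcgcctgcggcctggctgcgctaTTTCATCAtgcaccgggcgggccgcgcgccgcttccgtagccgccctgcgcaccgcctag
Yars, chr4:129189833-129189932, plus strand: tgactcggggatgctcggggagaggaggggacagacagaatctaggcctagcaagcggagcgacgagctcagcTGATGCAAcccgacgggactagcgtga
Iars, chr13:49682060-49682159, plus strand: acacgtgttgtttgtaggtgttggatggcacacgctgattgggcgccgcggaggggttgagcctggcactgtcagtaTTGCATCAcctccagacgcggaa
Mars, chr10:127311757-127311856, minus strand: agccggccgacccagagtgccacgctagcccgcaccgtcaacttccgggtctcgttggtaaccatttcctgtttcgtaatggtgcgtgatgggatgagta
Eprs, chr1:185362974-185363073, plus strand: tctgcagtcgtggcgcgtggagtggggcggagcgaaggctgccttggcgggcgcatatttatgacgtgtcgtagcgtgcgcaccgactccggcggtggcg

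In Tars, Gars and Iars the core lies on the strand opposite to the gene and in Yars on the same strand. Its first printed base is 15 bases before the start in Tars, 30 before in Gars, and at base 4 and base 8 after it in Yars and Iars. Read along the element, the core is TGATGCAA in Tars, Yars and Iars and TGATGAAA in Gars.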

How the data were processed

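Total RNA of 6 cultures was amplified, labelled with biotin and hybridised to Clariom D mouse arrays, 1 per culture. The authors made the deposited log2 values with Transcriptome Analysis Console by RMA, with background correction, quantile normalisation across arrays and 1 value per transcript cluster (row). Quantile normalisation hides a change in total RNA per cell. No annotation version is named for them. No column was left out.

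Gene names came from the annotation of the array platform. A linear model with a term for genotype and moderated variances was fitted to all 65956 rows in limma 3.58.1 (R 4.3.3), and its p-values were corrected over all rows (Benjamini-Hochberg). A gene passed with an adjusted p no higher than 0.05 together with a fold change over 1.5, which are the study's array thresholds; its array methods name no test. The methods' t-test is the unpaired test of the study's general statistics, run on the same values. Intervals are 95% limma intervals. The procedure was tested on simulated data. By rule, values by array are given for Atf4, the members that passed and their partners, and the 2 members of each compartment with the largest changes among those that did not, and for genes of the related lists that passed, which was Eef1e1. Farsb, Kars, Hars, Iars, Vars2 and Nars2 were added after their values were seen, as was Ddit3, without values by array. The members and lists were chosen with earlier results of these data known.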

Additional observations from a re-analysis of the deposited data

How the results depend on the processing

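In all, 14 other settings were tried on the 34 synthetase genes. The mean of all rows of a gene was among them and could not differ from the main result, as each gene had 1 row. The count of cytosolic genes that fell was 4. It was 2 in the methods' t-test and 1 in a test against a fold change of 1.5. With each array centred on its median it was 3, and with the adjusted p alone it was 8. It lay between 2 and 5 when 1 array was left out, the lowest without replicate 2 of either genotype. With the adjusted p alone 5 cytosolic genes were higher, 1 mitochondrial gene was lower and 3 were higher, where each of these counts was 0 with the fold threshold. Cars passed under all 14 settings, though a gene that passed the main rule could not fail with the adjusted p alone or with the mean of its rows. The medians of both compartments moved by less than the spread between arrays. Replicate numbers gave no sign of pairing the arrays of the genotypes. Deviations of same-numbered arrays correlated at −0.04, −0.01 and −0.22, and those of different-numbered arrays at −0.14 to 0.19. With 3 arrays per genotype this cannot show that cultures were not prepared in pairs. With the replicate block the count of cytosolic genes that fell was also 4. The number of arrays and the dim rows of the mitochondrial set limit what could be seen.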
